A study of Mus musculus with 9 samples.

Results

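Eph receptors are tyrosine kinases of the cell surface, and ephrins are the membrane-bound ligands that they meet on neighbouring cells. A-type ephrins are held by a lipid anchor and mainly bind EphA receptors, whereas B-type ephrins span the membrane and mainly bind EphB receptors, with EphA4 binding both kinds. Contact can signal into both cells, often makes them part or round up, and is known in vertebrate embryos for setting the borders between newly formed somites.

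The genes described here are 10 Eph receptors and ephrins: Epha1, Epha2, Epha4, Epha7, Ephb2, Ephb3, Efna1, Efna5, Efnb1 and Efnb2. They were chosen by name, with earlier results of these data known, and every probe annotated to them was taken. Of the 10 genes, 9 had a named probe, with 16 probes in all, out of 45281 probes on the array and 19057 genes with a named probe in the series. Ephb2 had none and is not analysed here. The other 12 genes of the family, with 29 probes, were read beside them.

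RNA came from dissected pieces of the tail of wild-type mouse embryos at E10.5. The chordoneural hinge (CNH) is a tailbud region that holds axial progenitors, with the tailbud mesoderm (TBM) beside it. Somites bud off from the presomitic mesoderm (PSM), which is still unsegmented. No region carried an engineered allele or a treatment, and each was measured on 3 Illumina Ref6v2 arrays, numbered replicate 1 to 3, 9 arrays in all. Pieces of many embryos were pooled per sample, and the study's methods count a technical replicate among the 3 of each region and name mouse strains CD1 and C57Bl/6J, without saying which arrays these are. P-values therefore measure the spread between arrays, part of which is technical, and strain could not be separated from replicate number. In pooled tissue, fewer cells of a type and less RNA per cell cannot be told apart.

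On each array, 30.1% to 32.7% of probes were detected, meaning a detection p under 0.01 against the negative control probes. Replicate 3 of every region stood apart from replicates 1 and 2. Over all tested probes its median absolute difference from their mean was 0.74 on the log2 scale in CNH, 0.69 in TBM and 0.62 in PSM. Regions were therefore compared with the replicate number as a block in the model, and the difference within each replicate number is given beside each fitted value. Among markers of the dissected tissues, all 8 axial progenitor genes were called higher in CNH than in PSM, and all 7 tested segment border and somite genes were called lower in CNH than in PSM. Of the presomitic mesoderm markers, however, 3 were tested and none was called higher in PSM than in TBM, with 1 called higher in PSM than in CNH. The number of arrays and the signal over background limit the precision of all values.

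To be tested, a probe had to be detected on every array of some region, CNH, TBM or PSM. Of the 16 probes, 7 passed, belonging to 5 genes: Epha1 (3 probes), Epha2, Efna1, Efna5 and Efnb1. The other 9 probes did not pass. They include the only probes of Epha4, Ephb3 and Efnb2, all 4 of Epha7, the fourth of Epha1 and the second of Efna5. Among the other 12 family genes, Ephb1, Ephb4 and Efna4 had tested probes (6 in all), and 6 genes were detected on no array: Epha3, Epha5, Epha6, Epha10, Ephb6 and Efna2. The map of detected arrays shows that most receptors of the family were detected on 3 arrays or fewer with these probes.

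**Figure D1:**
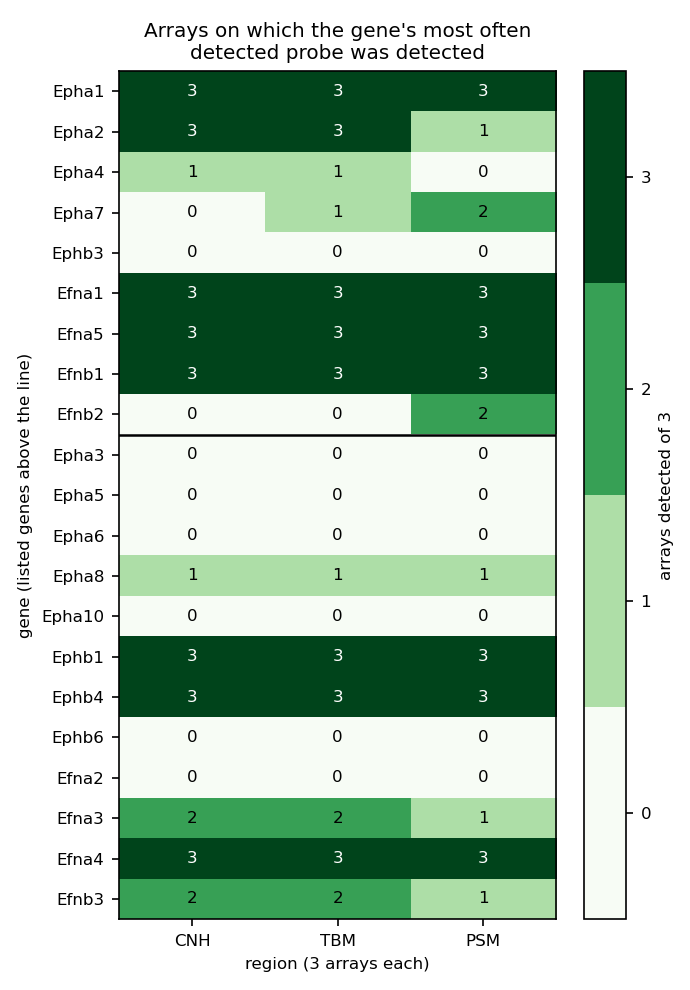
Number of arrays (of 3 per region) with a detection p under 0.01, for the most often detected probe of each family gene with a probe; columns are CNH, TBM and PSM, and the 9 listed genes with a probe stand above the line. Epha1, Efna1, Efna5 and Efnb1 were detected on all 9 arrays, Epha2 on 3 CNH, 3 TBM and 1 PSM array, and Ephb3 on none.

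A difference was called at an adjusted p under 0.05 and a fold change of at least 1.5 (limma with Benjamini-Hochberg adjustment over all 12437 tested probes). Between CNH and PSM, 6 of the 7 tested listed probes were called, where 11.2% of all tested probes were. Of all tested probes 6.66% were called higher and 4.54% lower in CNH, against 4 and 2 of the 7. Receptor probes were higher in CNH: 2 of the 3 Epha1 probes and Epha2. Ephrins went both ways, with Efna1 higher and Efna5 and Efnb1 lower in CNH. Between TBM and PSM, 6 of the 7 were also called, where 9.42% of all tested probes were (5.37% higher and 4.05% lower), with Epha1 (3 probes) and Efna1 higher and Efna5 and Efnb1 lower in TBM. These comparisons share the PSM arrays. The first Epha1 probe, Efna1, Efna5 and Efnb1 were detected on all 9 arrays. The second Epha1 probe and Epha2 passed the detection filter through CNH and TBM and the third Epha1 probe through TBM alone. These are the regions where they are high, so the filter favours their calls. The listed genes were also chosen with earlier results of these data known. These counts are therefore a description and not a test of the list against all probes. Between CNH and TBM the only call was Epha2, 1 of the 7 probes, where 1.01% of all tested probes were called (0.78% higher and 0.225% lower). Of the 6 tested probes of other family genes, none was called in either comparison with PSM, and 1 (Ephb1) between CNH and TBM. Over the whole family, 6 of 13 tested probes were called in each comparison with PSM.

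**Figure D2:**
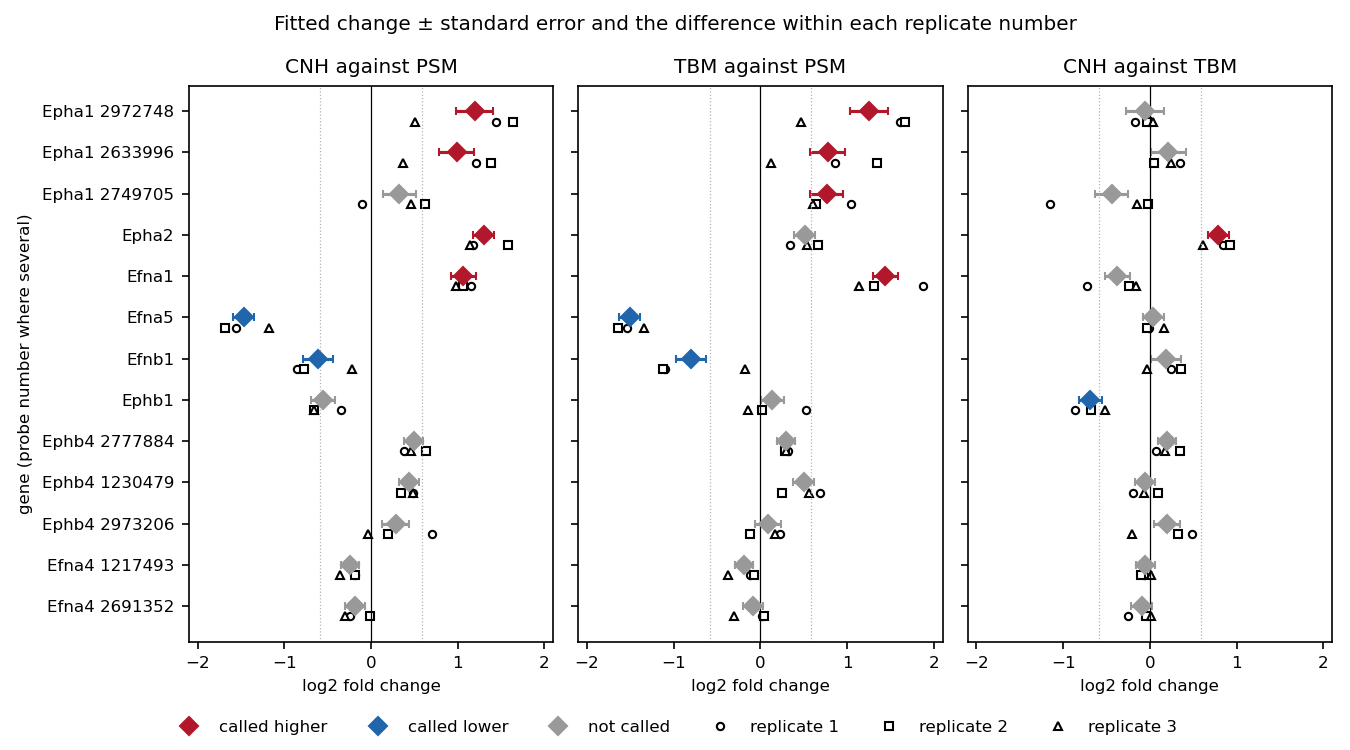
Fitted log2 fold change (x axis, diamonds, bars are the standard error) of the 13 tested family probes in 3 comparisons, with the difference within each replicate number below as open symbols; dotted lines mark 1.5-fold. In CNH against PSM the listed probes run between -1.47 (Efna5) and 1.30 (Epha2), with the third Epha1 probe at 0.33, and in CNH against TBM Epha2 (0.79) and Ephb1 (-0.69) are the called probes.

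Of the listed receptors, Epha1 had the most tested probes (3). EphA1 is the founding member of the family, named from the first Eph receptor to be cloned. Its first probe (ILMN_2972748) had normalized log2 signals of 8.05, 7.94 and 7.39 on CNH replicates 1 to 3, 8.23, 7.97 and 7.35 on TBM and 6.61, 6.31 and 6.88 on PSM. Every CNH and TBM array lay above every PSM array. The fitted log2 fold change was 1.19 (SE 0.22, adjusted p = 0.00345) in CNH against PSM and 1.25 (SE 0.22, adjusted p = 0.00306) in TBM against PSM. Within replicates 1, 2 and 3 the CNH minus PSM difference was 1.44, 1.64 and 0.51, so it kept its sign in all 3 and was smallest in replicate 3. CNH and TBM differed by -0.06 (95% interval -0.54 to 0.43), a width that leaves room for a moderate difference either way.

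The second Epha1 probe (ILMN_2633996) read 6.49, 6.31 and 5.35 in CNH, 6.14, 6.27 and 5.11 in TBM and 5.28, 4.92 and 4.98 in PSM. Its CNH arrays lay above its PSM arrays, whereas TBM replicate 3 fell within the PSM range, and 1 PSM array was below detection. The log2 fold change was 0.99 (SE 0.20, adjusted p = 0.00706) in CNH against PSM. In TBM against PSM it was 0.78 (SE 0.20, adjusted p = 0.0288), and this call was lost without TBM replicate 1, TBM replicate 2, PSM replicate 1 or PSM replicate 2 (adjusted p 0.0988 to 0.172). The TBM against PSM call was also lost with an offset of 50 (0.46) and with replicates 1 and 2 averaged (adjusted p = 0.160). Both calls were lost with no background correction (0.48 in CNH and 0.37 in TBM, each against PSM). With no filter on dim probes the adjusted p was 0.0636 for CNH and 0.170 for TBM. Of 19 alternatives that tested this probe, the CNH call held in 15 and the TBM call in 9. The third Epha1 probe (ILMN_2749705) passed the detection filter only through TBM. It read 4.76, 5.26 and 4.91 in CNH, 5.90, 5.28 and 5.06 in TBM and 4.86, 4.63 and 4.45 in PSM, where no array was above detection. The fitted log2 fold change in TBM against PSM was 0.76 (SE 0.19, adjusted p = 0.0228), which rests on PSM values below detection. Against the lowest detected signal of each PSM array, TBM was at least 1.40-fold higher. That bound is under the 1.5-fold threshold and was not itself tested. As the filter admitted the probe only where it is high, this is a description. Leaving out TBM replicate 1 or any 1 of the 3 PSM arrays gave an adjusted p of 0.0590 to 0.127. Its CNH against PSM value of 0.33 (SE 0.19, adjusted p = 0.275) was not called, but was called without CNH replicate 1 (0.61, adjusted p = 0.0284). Within replicates 1, 2 and 3 the difference was -0.10, 0.62 and 0.46. The interval of the fitted value, -0.10 to 0.75, overlaps those of the first (0.71 to 1.68) and second (0.54 to 1.44) probes. With signals this near the detection limit, the missing call does not show that the Epha1 probes disagree on CNH. The fourth probe (ILMN_2686924) was detected on 4 arrays, 2 of CNH, 1 of TBM and 1 of PSM, with signals of 60.5 to 98.8 on the linear scale.

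Epha2, an A-type receptor best known from epithelia and blood vessels, was the only listed gene with a call between CNH and TBM. Its probe read 6.15, 6.27 and 5.84 in CNH, 5.31, 5.35 and 5.24 in TBM and 4.97, 4.69 and 4.69 in PSM. The regions did not overlap and stood in the order CNH, TBM, PSM in each replicate number. On the PSM arrays it was detected on 1 of 3. Its signals were near background elsewhere too, at 1.43 to 1.49 times the array's lowest detected signal in CNH and 1.10 to 1.13 times in TBM. In CNH it was 1.30 higher than in PSM on the log2 scale (SE 0.12, adjusted p = 4.79e-05), with 1.17, 1.58 and 1.15 within the replicates. CNH exceeded TBM by 0.79 (SE 0.12, adjusted p = 0.0168), with 0.84, 0.92 and 0.61 within the replicates. That call was lost with fewer arrays, since leaving out CNH replicate 1 or 2 or any 1 of the 3 TBM arrays gave an adjusted p of 0.0680 to 0.134, while the difference stayed at 0.69 to 0.82. TBM against PSM had an adjusted p of 0.0182 but a fold change of 1.43, under the threshold, and passed it without PSM replicate 1 (log2 fold change 0.59, adjusted p = 0.0330). Against the mean of TBM and PSM, where 5.24% of all tested probes were called (3.39% higher and 1.86% lower), 2 of the 7 listed probes were: Epha2, higher in CNH by 1.04 (SE 0.11, adjusted p = 0.00021), and Efna5, lower in CNH.

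**Figure D3:**
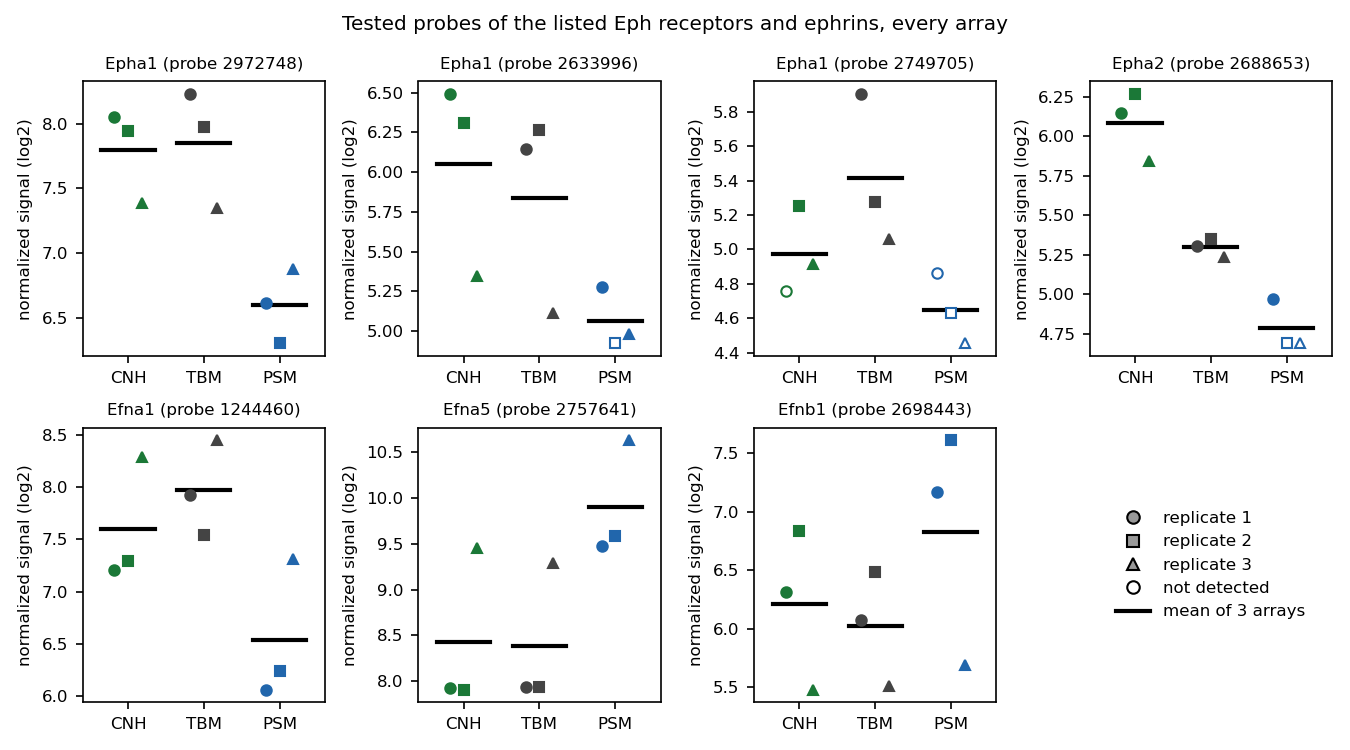
Normalized log2 signal (y axis, a separate scale for each probe) of the 7 tested listed probes on every array, by region (CNH, TBM, PSM), with circles, squares and triangles for replicates 1, 2 and 3, open symbols where the probe was not detected, and a bar at the mean of 3 arrays. Efna5 is highest and Efna1 lowest in PSM within each replicate number, and replicate 3 lies above the other replicates for both.

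Of the ligands, Efna1 and Efna5 are both A-type ephrins, and their levels ran in opposite directions across the regions. Efna1, which encodes a ligand of EphA2 first found as a product of endothelial cells, read 7.21, 7.30 and 8.30 in CNH, 7.93, 7.54 and 8.45 in TBM and 6.05, 6.23 and 7.31 in PSM. Replicate 3 was the highest of each region, by 1.04 in CNH, 0.72 in TBM and 1.17 in PSM over the mean of replicates 1 and 2, so CNH overlaps with TBM and with PSM when the replicates are read together, while TBM and PSM do not overlap. Within each number the order was TBM, CNH, PSM. The log2 fold change was 1.07 (SE 0.14, adjusted p = 0.000552) in CNH against PSM, with 1.15, 1.06 and 0.98 within the replicates. In TBM against PSM it was 1.44 (SE 0.14, adjusted p = 0.000102), with 1.87, 1.31 and 1.14. CNH was below TBM in all 3 replicates, with a fitted log2 difference of -0.37 (95% interval -0.70 to -0.05), which did not pass adjustment over all probes (adjusted p = 0.319).

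Efna5, an ephrin known for guiding axons and for repelling cells at tissue borders, had its highest level in PSM. Its tested probe (ILMN_2757641) read 7.93, 7.90 and 9.45 in CNH, 7.94, 7.94 and 9.29 in TBM and 9.48, 9.59 and 10.63 in PSM. Replicate 3 was again the highest, by 1.54 in CNH, 1.35 in TBM and 1.10 in PSM, yet each PSM array lay above every CNH and TBM array. The log2 fold change was -1.47 (SE 0.12, adjusted p = 1.99e-05) in CNH against PSM, a 2.77-fold lower level, and -1.51 (SE 0.12, adjusted p = 2.24e-05) in TBM against PSM. Within the replicates the CNH minus PSM difference was -1.55, -1.68 and -1.18. CNH and TBM differed by 0.04 (95% interval -0.23 to 0.31). Against the mean of TBM and PSM, Efna5 was lower in CNH, with a log2 fold change of -0.72 (SE 0.10, adjusted p = 0.00193). The second Efna5 probe (ILMN_2662536) was detected on no array, so the change rests on 1 probe.

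Efnb1, a B-type ephrin carried on the X chromosome and needed for proper patterning of the skeleton, was also highest in PSM, by a smaller margin. It read 6.32, 6.84 and 5.48 in CNH, 6.07, 6.48 and 5.51 in TBM and 7.17, 7.61 and 5.69 in PSM. Here replicate 3 was the lowest of each region, with a difference of -1.70 from the mean of replicates 1 and 2 in PSM, and on it the regions nearly met. The log2 fold change was -0.61 (SE 0.17, adjusted p = 0.0338) in CNH against PSM, with -0.86, -0.77 and -0.21 within the replicates, and -0.80 (SE 0.17, adjusted p = 0.0109) in TBM against PSM. The first was lost without any 1 of CNH replicates 1, 2 and 3 and PSM replicates 1 and 2 (adjusted p 0.0681 to 0.155), and the second without TBM replicate 1 or 2 or PSM replicate 1 or 2 (adjusted p 0.0651 to 0.0774). The first was also lost with median scaling (-0.51, adjusted p = 0.0650), no background correction (-0.40), an offset of 50 (-0.47), no filter on dim probes (adjusted p = 0.152) and replicates 1 and 2 averaged (adjusted p = 0.162), and held in 8 of 20 alternatives. The second was lost with no background correction (-0.52), no filter (adjusted p = 0.0802) and replicates 1 and 2 averaged (adjusted p = 0.0973), and held in 11 of 20. In all of these PSM stayed the higher region.

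The replicate block carried these calls. The shift of replicate 3 in Efna1, Efna5 and Efnb1 was of a size like that between the regions, and without the block only Epha2 was called in CNH against PSM, while Efna5 had an adjusted p of 0.400 and Efna1 of 0.475. On the deposited normalized values, a compressed scale, only Efna5 reached both thresholds, with -0.98 in CNH against PSM. There Efna1 (0.36, adjusted p = 0.00328), the first Epha1 probe (0.43, adjusted p = 0.0180) and Epha2 (0.22, adjusted p = 0.00356) kept an adjusted p under 0.05 in CNH against PSM but not the fold change.

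Efnb2, a B-type ephrin known from arteries and from the posterior part of each somite, was near background. Its linear signals were 83.0, 73.2 and 60.9 in CNH, 76.5, 75.0 and 63.1 in TBM and 88.7, 93.0 and 63.2 in PSM. It was detected on PSM replicates 1 and 2 (detection p 0.00214 and 0.00534) and on no other array. With no filter on dim probes its log2 value was -0.46 in CNH against PSM (adjusted p = 0.156) and -0.48 in TBM against PSM (adjusted p = 0.175), neither called. Without PSM replicate 3 it passed the detection filter through PSM alone, where it is high, so its values there, -0.65 in CNH against PSM and -0.66 in TBM against PSM, are a description. Epha4, a receptor for both ephrin types that is known from forming somite borders, read 82.0, 73.9 and 88.6 in CNH, 66.1, 76.5 and 83.3 in TBM and 77.4, 86.3 and 70.1 in PSM. Only CNH replicate 3 and TBM replicate 3 were above detection, and with no filter CNH and PSM differed by 0.02 (adjusted p = 0.982). Epha7, an A-type receptor known from the developing brain, had probes detected on 3, 2, 1 and 0 arrays, with signals between 55.6 and 96.1. Ephb3, a receptor known from the gut epithelium, was detected on none, with signals of 62.8 to 85.0. Differences of Epha4, Epha7 and Ephb3 between regions were not detectable at this signal.

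**Figure D4:**
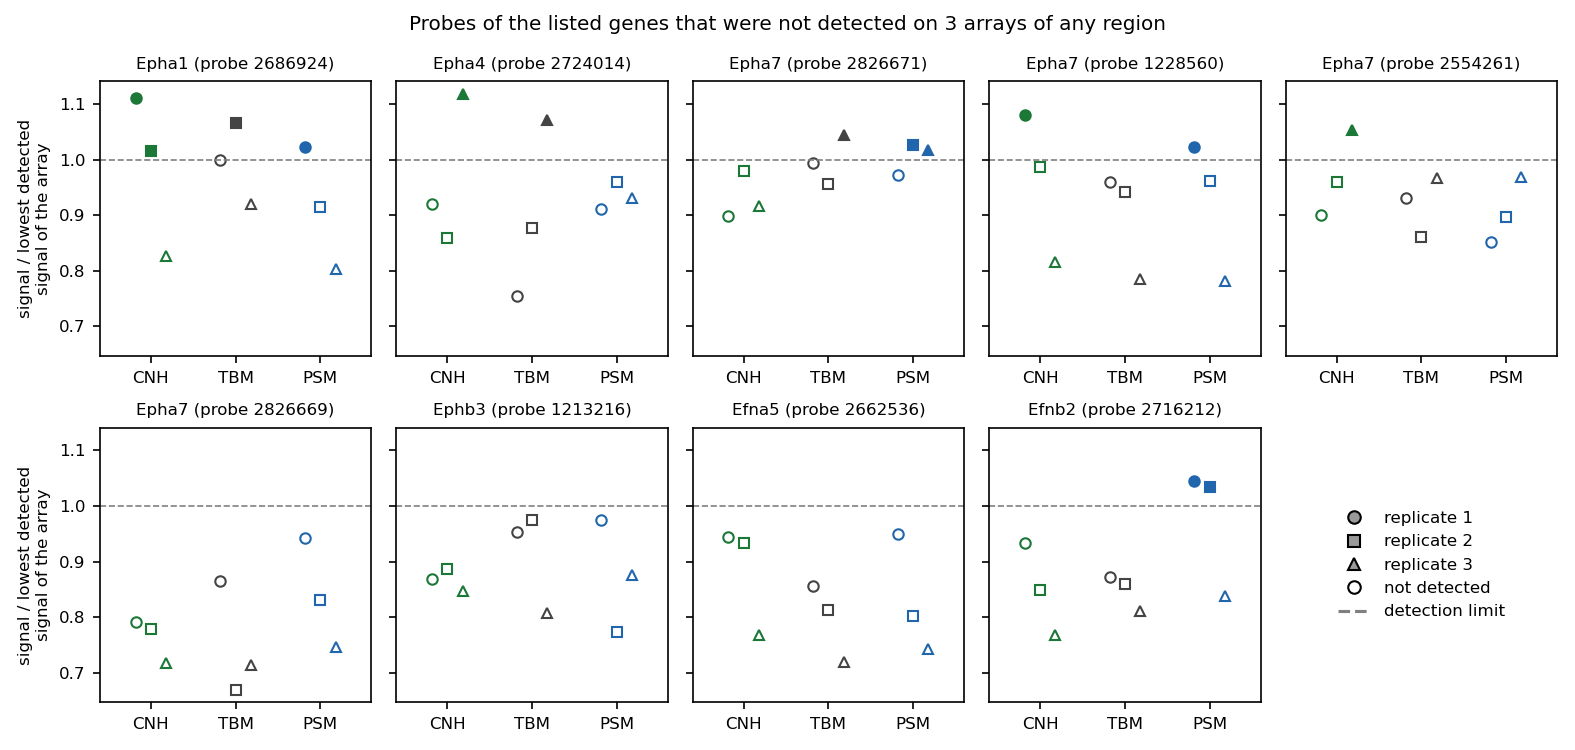
Signal of the 9 listed probes that were not tested, as a ratio to the lowest detected signal of the same array (y axis, dashed line at 1), by region (CNH, TBM, PSM), with circles, squares and triangles for replicates 1, 2 and 3 and open symbols where not detected. All values stay close to the detection limit, and Efnb2 crosses it only on PSM replicates 1 and 2.

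Of the other family members with tested probes, Ephb1, a B-type receptor, was lower in CNH than in TBM, with a log2 fold change of -0.69 (SE 0.13, adjusted p = 0.0469), a value close to the threshold that was lost without any 1 of the 6 CNH and TBM arrays or PSM replicate 2 (adjusted p 0.0708 to 0.300). Ephb4, the receptor of venous endothelium that pairs with ephrin-B2, was not called. Its 3 probes had values of 0.49, 0.44 and 0.29 in CNH against PSM, with adjusted p of 0.00962, 0.0248 and 0.237 and fold changes under 1.5, and the third was slightly lower in CNH within replicate 3 (-0.04). Against the mean of TBM and PSM the Ephb1 value was -0.62 (adjusted p = 0.00786), a call lost without CNH replicate 1 or 2 (adjusted p 0.0513 and 0.0571) and, on the fold change, without TBM replicate 1 (-0.55) or PSM replicate 3 (-0.57). Without PSM replicate 1, Ephb1 was also called in CNH against PSM (-0.71, adjusted p = 0.00918), and without TBM replicate 2 or PSM replicate 2 the second Ephb4 probe in TBM against PSM (0.60 and 0.59). Efna4 was called in no comparison, with fitted values between -0.24 and -0.05.

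Proteins that cut Ephs and ephrins or act below them were read from a list of 50 genes, of which 46 had a probe and 29 were tested by their brightest probe. Between CNH and PSM, 4 were called higher and 0 lower, 13.8% of those tested, where 12.3% of all tested genes were called. Among them were Psen2, a presenilin of the gamma-secretase complex (0.79), and Shc1, an adaptor of receptor kinases (0.68). Between TBM and PSM, 2 were called higher (Shc1 at 0.65 and Psen2 at 0.59) and 1 lower (Tns3, a tensin of focal adhesions, at -0.77), 10.3% of those tested against 10.5% of all genes. Psen2 there fell below 1.5-fold or past the adjusted threshold without CNH replicate 3, TBM replicate 2, PSM replicate 1 or PSM replicate 2 (0.51 to 0.58). Between CNH and TBM, Grb7, an adaptor that binds receptor kinases, was the only call (0.86, adjusted p = 0.0411), 3.45% of those tested against 1.2% of all genes, and leaving out any 1 of the 9 arrays took its adjusted p to between 0.0548 and 0.142. By brightest probe, the shares of the list lay close to those of all genes in the comparisons with PSM. Over all 42 tested probes of the 29 genes, 6 were called higher and 1 lower in CNH against PSM. That is 16.7%, where 11.2% of all tested probes were called. In TBM against PSM, 2 of the 42 were higher and 3 lower, 11.9% where 9.42% of all tested probes were called.

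Some marker genes of cell types moved with the members. The 8 axial progenitor genes summed to 14810 to 15880 in CNH, 13290 to 13550 in TBM and 1445 to 2813 in PSM, high where Epha1 and Efna1 were. The summed level of the 10 tested of 12 endothelial genes was also high there. It ranged over 7454 to 8271 in CNH, 6590 to 8264 in TBM and 3703 to 4367 in PSM. Lmo2 was the brightest of these genes (log2 12.17 in CNH and 10.86 in PSM). In CNH against PSM 7 were called higher, and Cdh5, Tek and Egfl7 were not called. Kdr and Tie1 were not tested. The sum over the 8 tested of 12 genes of surface ectoderm and other epithelium was 1067 to 1529 in CNH, 996.5 to 1081 in TBM and 2052 to 3209 in PSM. It was high where Efna5 and Efnb1 were, with 5 called lower in CNH than in PSM and Krt5, Epcam, Grhl2 and Grhl3 not tested. The 7 tested of 12 segment border and somite genes summed to 285.7 to 735.3 in CNH, 292.2 to 861.4 in TBM and 2146 to 8687 in PSM, high where Efna5 and Efnb1 were, while Mesp2, Tbx18, Uncx, Pcdh8 and Pax3 were not tested. Neural tube markers (2 tested of 8, both called) were higher in CNH than in TBM, as Epha2 was. Their sums were 176.4 to 196.8 in CNH, 57.7 to 96.2 in TBM and 48.1 to 97.1 in PSM. Sox1, Sox3, Pax6, Olig2, Neurog2 and Nkx6-1 were not tested. Notochord and floor plate markers (2 tested of 6, both called) summed to 151.9 to 386.4 in CNH, 56.2 to 93.8 in TBM and 45.9 to 75.7 in PSM, with Noto, Foxa2, Nog and Foxj1 not tested. Gut endoderm markers (2 tested of 8, 1 called) summed to 508.6 to 934.7 in CNH, 173.4 to 294.6 in TBM and 51.5 to 85.4 in PSM, the order of Epha2, with Sox17, Foxa1, Trh, Hnf4a and Cdh17 not tested. Erythroid markers (5 tested of 6) summed to 59490 to 73710 in CNH, 56970 to 66180 in TBM and 45220 to 62520 in PSM, ranges that overlap. Klf1 and Alas2 were called higher in CNH than in PSM, whereas Hba-x, Hbb-y and Hbb-bh1 were not called, and Gata1 was not tested. The part of these cell types in the members' differences was not tested.

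The genes whose pattern was most like each member's were read from Pearson's r over the 9 arrays after each replicate number's mean was taken out, among 7819 other genes. The arrays share 3 regions, so many genes reach a high r, and the values are a description. Epha1 ran closest to Sgk1 (0.995), Aspg (0.993) and Klk15 (0.992), and Epha2 to Snx10 (0.995), Tcea3 (0.992) and Cmtm8 (0.991). Efna1 was closest to Sdc2 (0.991), Nanos1 (0.987) and H2-D1 (0.985), Efna5 to Spsb4 (0.998), Meox1 (0.997) and Pgm5 (0.997), and Efnb1 to Sh3bp2 (0.989), Egr1 (0.981) and Pcca (0.978). Meox1, the neighbour of Efna5, is a homeobox gene of somites and one of the segment border and somite list. Between members, r was 0.92 for Epha1 and Efna1 and 0.90 for Efna5 and Efnb1. Epha1 had -0.95 with Efna5 and -0.97 with Efnb1, and Efna1 had -0.95 and -0.92 with the same genes. The pairs of Epha2 were weaker, at 0.72 with Epha1, 0.58 with Efna1, -0.78 with Efna5 and -0.56 with Efnb1.

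Because Efna1 was higher and Efna5 lower in both tailbud regions, the 250 bases before an annotated start of these genes are shown (RefSeq, build GRCm38.p6, 5′ to 3′ on the gene's strand). All 10 listed genes matched the promoter table. Capitals mark the letters TCACACC, the core letters of T-box factors, CTTTGNT, a LEF/TCF site, and CANNTG, an E-box, searched on both strands.
Efna1, chr3:89280952-89281201, minus strand: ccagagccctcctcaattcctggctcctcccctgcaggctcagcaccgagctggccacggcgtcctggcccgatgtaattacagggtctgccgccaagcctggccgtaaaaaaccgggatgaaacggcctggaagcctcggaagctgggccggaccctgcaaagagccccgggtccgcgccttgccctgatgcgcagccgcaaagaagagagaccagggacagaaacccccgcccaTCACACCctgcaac
Efna5, chr17:62881318-62881567, minus strand: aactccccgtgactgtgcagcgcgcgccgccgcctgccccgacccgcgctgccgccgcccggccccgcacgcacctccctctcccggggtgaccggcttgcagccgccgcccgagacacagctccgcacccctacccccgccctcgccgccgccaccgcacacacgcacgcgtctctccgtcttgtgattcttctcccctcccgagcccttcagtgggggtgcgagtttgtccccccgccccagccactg

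The T-box letters stood in 1 of the 10 listed promoters, that of Efna1, and in 3.31% of 27025 mouse promoters of the same length. The LEF/TCF letters were in none of the 10 and in 16.1% of all promoters, and an E-box in 4 of the 10 and in 66% of all. The Efna5 window held none of the 3 motifs. GC content was 64.8% in Efna1 and 74.8% in Efna5, against a median of 52% over all promoters. These are matches of letters in a short window, with no measure of binding.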

How the data were processed

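Total RNA of 9 pooled samples was labelled and hybridised to Illumina Ref6v2 arrays. The deposited non-normalized table holds 1 linear signal intensity per probe and array with a deposited detection p-value. For the other table the authors transformed and normalized the signals (VST and RSN, in lumi), which gives deposited values on a log2-like scale. The authors' own comparisons were not used.

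In R 4.3.3 with limma 3.58.1, neqc (normexp background correction, with negative controls recovered through the detection p-values, then an offset of 16 and quantile normalization) gave log2 values. Of 45281 probes, 34885 had 1 gene symbol in the platform annotation, 18 several and 10378 none. Keeping probes whose detection p was under 0.01 throughout some region left 12437 probes and 7820 genes. The model fitted region means with replicate number as a blocking factor (4 residual degrees of freedom), and was tested on simulated data. Replicate numbers come from the sample titles. Deviations from the region means correlated at 0.858 to 0.964 between same-numbered arrays of different regions, at 0.863 to 0.893 between numbers 1 and 2, and at -0.930 to -0.895 between number 3 and the others. Each region's mean was taken over its 3 arrays, so the negative values follow once numbers 1 and 2 are alike. The range for numbers 1 and 2 lay within that of same-numbered arrays, so these values do not show that 1 and 2 are paired by number.

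Every listed probe is accounted for, other family genes were named by list, and of the pathway list at most the 3 largest calls each way. The members and the lists were chosen with earlier results of these data known. The alternatives changed the block, the background correction, the offset, the scaling, the filter, the thresholds and the arrays used.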

Additional observations from a re-analysis of the deposited data

How the results depend on the processing

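With the replicate block, 6 of 7 listed probes were called in CNH against PSM, 1 in CNH against TBM, 2 in CNH against the mean of TBM and PSM, and 6 in TBM against PSM. Without the replicate block the counts were 1, 0, 1 and 0, in that order of comparisons, with 1 and 5 of the 7 at an unadjusted limma p under 0.05 where it was 0. On the deposited normalized values they were 1, 0, 0 and 1. With no background correction CNH against TBM had 0, CNH against the mean 1 and TBM against PSM 3. CNH against TBM also had 0 with an offset of 50, with no filter on dim probes, with probes detected on all 9 arrays (where Epha2 was not tested) and with replicates 1 and 2 averaged. CNH against the mean had 1 with probes detected on all 9 arrays and 4 without replicate 3 of all regions, and TBM against PSM had 3 with no filter. At an adjusted p under 0.01 and 2-fold, CNH against TBM had 0, CNH against the mean 1 and TBM against PSM 3, where 0.145%, 1.68% and 3.97% of all tested probes were called. Leaving out 1 array at a time gave 5 to 7 in CNH against PSM, 0 to 1 in CNH against TBM, 2 to 4 in CNH against the mean (4 without PSM replicate 3) and 3 to 6 in TBM against PSM (3 without TBM replicate 1 and without PSM replicate 2). The listed probes tested were not always 7. They were 8 without CNH replicate 3, PSM replicate 1 or PSM replicate 3, and 9 without replicate 3 of all regions. With no filter they were 16, and with probes detected on all 9 arrays 4. The 7 calls in CNH against PSM were of 8 tested, without PSM replicate 3, where 1612 of all 13932 tested probes were called.

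Over all tested probes the calls were 1393, 125, 652 and 1172 in that order, against 351, 0, 100 and 268 without the block, 279, 15, 77 and 242 on deposited values, 734, 60, 274 and 615 with no background correction, and 897, 76, 378 and 762 with probes detected on all 9 arrays. An offset of 50 left 884, 340 and 749 in the comparisons other than CNH against TBM, which had 20 with no filter, 31 with replicates 1 and 2 averaged and 18 to 49 without 1 of CNH replicates 1 and 2 and TBM replicates 1 to 3.

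Over all alternatives, none of 548 values of the listed probes reversed a call (0), 459 kept direction and side of the threshold, 71 fell below it and 10 passed it. The other 8 changed sign, with no call in the main fit or the alternative. The 548 include comparisons that were not called in the main fit and so could not lose a call. The cause of these shifts was not tested. Signals near background limit Epha4, Epha7, Ephb3 and Efnb2, and the counts without PSM replicate 3 in both comparisons with PSM, and without replicate 3 of all regions in TBM against PSM, include Efnb2, which the filter then admitted through PSM alone, where it is high. The detection filter was applied anew when arrays were left out.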
